A study of Mus musculus with 2 samples.

Results

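The family of miR-15, miR-16, miR-322 and miR-503 is a group of miRNAs that read nearly the same seed, the stretch of bases by which a miRNA recognises its target mRNAs. Its 7 guide arms, mmu-miR-15a-5p, mmu-miR-15b-5p, mmu-miR-16-5p, mmu-miR-195a-5p, mmu-miR-322-5p, mmu-miR-497a-5p and mmu-miR-503-5p, with mmu for the mouse, were taken by exact name from the 1900 miRNA spots of the array, and each had 1 spot. Of the 7 members, 5 were detected in the plasma extracellular vesicles (EVs) of C57BL/6 mice, of which miR-503-5p only just, against 33.6% of all miRNAs. In those of BALB/c mice 4 were detected, against 9.84% of all miRNAs. By the intensity of the spot, with its surroundings not subtracted, the brightest on each array was miR-16-5p. Both miR-322-5p and miR-497a-5p were below the detection threshold in both strains. Relative to the other miRNAs measured in both strains, the 4 members detected in both had ratios of C57BL/6 to BALB/c on the low side of the median. On the spot intensities all 4 lay between the quartiles of the miRNAs measured in both strains, as did 49.4% of those miRNAs. With the wider estimate of spot noise, the ranges of 3 members included the median. On the spot intensities none was more than 2-fold below the median, and with the surroundings of the spots subtracted miR-15a-5p was, at -1.05 on the log2 scale.

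Each array held the Cy5-labelled EV RNA of 1 pool of plasma from 5 male mice aged 8 weeks, of the strain C57BL/6 on one array and of the strain BALB/c on the other. In both strains the left femoral artery had been ligated and severed, with the vein as well according to the methods of the study, and blood was drawn 24 h later. The study set C57BL/6, whose limb blood flow recovers after such a ligation, against BALB/c, where it does not. No unligated mice were analysed here, so that a difference present before the ligation and one that followed it cannot be told apart. With 1 array per strain there was no replicate, so that no SD between samples, no test and no p-value could be computed, and the strain cannot be told apart from the pool or the array. The labels name cells and another RNA kit as the source of the RNA, whereas the methods describe plasma EVs and an exosome RNA kit.

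The members of this family act as brakes on the cell cycle and on survival in many mammalian cells, where they repress cyclins of the early cycle and the anti-apoptotic protein BCL2. They are transcribed as pairs from 4 places in the mouse genome: miR-15a with miR-16, miR-15b with a further copy of miR-16, miR-195a with miR-497a, and miR-322 with miR-503. miR-16 is abundant in blood cells, red cells included, and is often used as a reference in plasma. The pair of miR-195 and miR-497 is known from the heart, where in mice it rises as cardiomyocytes leave the cell cycle. miR-322, called miR-424 in humans, and miR-503 are known from muscle differentiation in mouse cells and from endothelial cells under hypoxia or in diabetes.

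The mature sequences are shown because the members differ in only a few bases, which bears on what each spot can tell apart. Capitals mark the seed, bases 2 to 8 counted from the 5′ end, and the sequences are those of RefSeq for the assembly GRCm38.p6, in which all 7 members were found by name.
miR-16-5p: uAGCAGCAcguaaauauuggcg
miR-195a-5p: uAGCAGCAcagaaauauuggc
miR-15a-5p: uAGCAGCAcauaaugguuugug
miR-15b-5p: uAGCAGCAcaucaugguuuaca
miR-497a-5p: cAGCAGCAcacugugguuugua
miR-322-5p: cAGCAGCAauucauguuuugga
miR-503-5p: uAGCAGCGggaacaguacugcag

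The first 6 shared the same seed, and miR-503-5p departed from it at its last base, A8G with the base of miR-16-5p first. Outside the seed, miR-195a-5p was the nearest to miR-16-5p, with 2 substitutions, G10A and U11G, over 21 compared bases. miR-15a-5p had 6 substitutions from miR-16-5p over 22 bases, miR-15b-5p had 8, miR-322-5p and miR-503-5p had 10 each, and miR-497a-5p had 11. miR-15a-5p and miR-15b-5p differed from each other at 4 of 22 bases. How much RNA of one member binds to the spot of another was not tested, so that the values of miR-195a-5p and miR-16-5p, and those of miR-15a-5p and miR-15b-5p, are uncertain as separate values.

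In GRCm38.p6, miR-15a-5p lies at chr14:61632075-61632096 on the minus strand and miR-16-5p at chr14:61631936-61631957 beside it, both within the long non-coding RNA gene Dleu2. The other copy of miR-16-5p is at chr3:69009918-69009939 on the plus strand, beside miR-15b-5p at chr3:69009775-69009796, within the bounds of the protein-coding gene Smc4. Since both copies give the same mature sequence, the miR-16-5p spot reads their sum. miR-497a-5p is at chr11:70234730-70234751 and miR-195a-5p at chr11:70235062-70235082, both on the plus strand. miR-322-5p is at chrX:53054306-53054327 and miR-503-5p at chrX:53054027-53054049, both on the minus strand within the non-coding gene C430049B03Rik.

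A spot counted as detected where its Cy5 intensity, in arbitrary units and as deposited, exceeded the mean of the empty BLANK spots by over 2 SD, with 5% of them trimmed at either end. For C57BL/6 the BLANK spots averaged 98.3 ± 3.62 and for BALB/c 102 ± 4.02 (SD over 806 spots each), and the thresholds came to 106 and 111. By this rule 5 of the 7 members were detected in C57BL/6 EVs, against 33.6% of all 1900 miRNAs. In BALB/c EVs 4 of the 7 were detected, against 9.84% of all miRNAs. The 4 detected in both strains, miR-15a-5p, miR-15b-5p, miR-16-5p and miR-195a-5p, compare with 9.37% of all miRNAs. miR-503-5p was detected only in C57BL/6 EVs, as were 24.2% of all miRNAs, and no member was detected only in BALB/c EVs.

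mmu-miR-16-5p had a spot intensity of 740 in C57BL/6 EVs and 307 in BALB/c EVs, which is 177 SD and 51.0 SD above the background. mmu-miR-15b-5p followed with 303 in C57BL/6 EVs and 166 in BALB/c EVs. mmu-miR-15a-5p had 243 in C57BL/6 EVs and 165 in BALB/c EVs. These 3 are the products of the Dleu2 and Smc4 loci, and they lay far above both thresholds. mmu-miR-195a-5p was much nearer to the threshold, with 131 in C57BL/6 EVs and 115 in BALB/c EVs, 9.01 SD and 3.01 SD above the background. In order of brightness, with their surroundings not subtracted, the 4 spots ran miR-16-5p, miR-15b-5p, miR-15a-5p and miR-195a-5p on both arrays. On the BALB/c array miR-15b-5p and miR-15a-5p differed by less than the noise of the BLANK spots. Spots of different probes need not be equally bright for the same amount of RNA, so that this is an order of brightness and not of abundance.

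**Figure D1:**
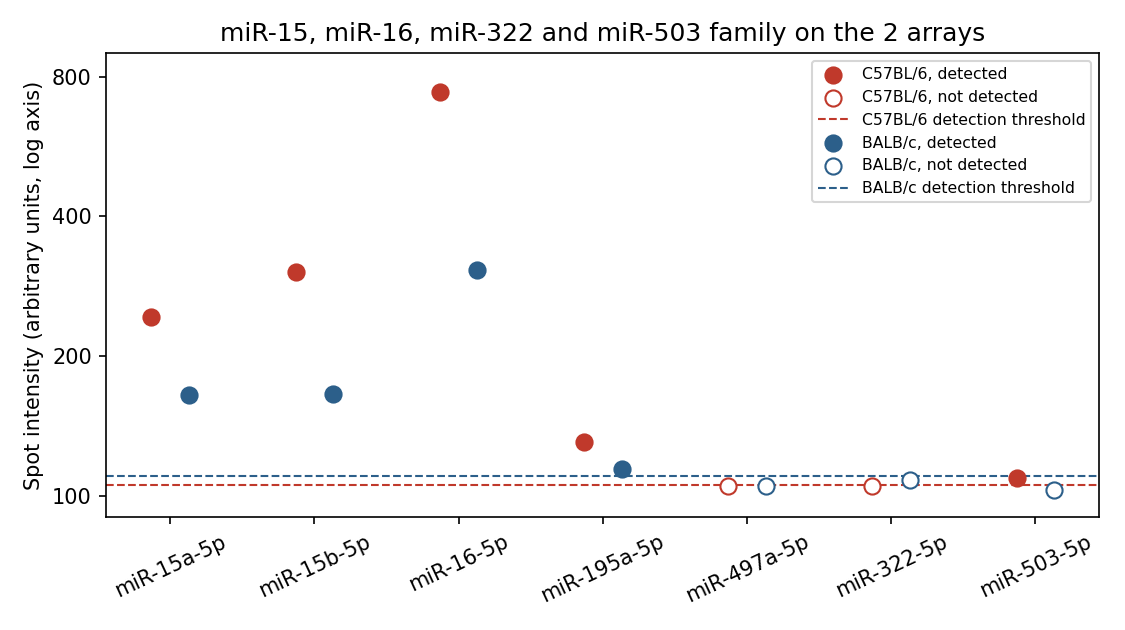
Spot intensity (arbitrary units, log axis) of the 7 members in C57BL/6 EVs (red, left of each pair) and BALB/c EVs (blue, right), filled where detected and open where not, with the detection threshold of each array as a dashed line. miR-16-5p stands highest on both arrays at 740 and 307, and miR-497a-5p and miR-322-5p lie under both thresholds.

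The other 3 members were at or near the threshold, and 2 of them were detected in neither strain, as were 65.9% of all miRNAs. mmu-miR-503-5p read 109 in C57BL/6 EVs, 2.997 SD above the background, and 103 in BALB/c EVs, 0.103 SD above it. With a threshold of 3 SD it was not detected, which left 4 of the 7 members in C57BL/6 EVs. Of the 174 spots that carry no probe, 1 was as bright as this on the C57BL/6 array, and 9 (5.17%) passed the threshold there, with 8 (4.60%) on the BALB/c array. mmu-miR-322-5p read 105 in C57BL/6 EVs and 108 in BALB/c EVs, 1.91 SD and 1.40 SD above the background. mmu-miR-497a-5p read 105 in both, 1.94 SD above the background in C57BL/6 EVs and 0.606 SD in BALB/c EVs. A level just under the threshold may be a low level or none, and the depth of 1 spot per array does not tell which. Between miR-322-5p and miR-497a-5p there was no order beyond the noise on the C57BL/6 array. On unscaled arrays miR-503-5p was at least 1.34-fold higher in C57BL/6 EVs than in BALB/c EVs, with the dimmest detected BALB/c signal in place of its own and spot noise left out. After scaling this bound fell under 1, so that no fold is given there.

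The ratio between the strains could be formed for the 4 members detected in both. Since the C57BL/6 array was brighter as a whole, the ratio of each member is given first relative to the median ratio of the 178 miRNAs detected on both arrays, which is the same under any single scaling factor. On this log2 scale miR-15a-5p was lowest at -0.76, followed by miR-195a-5p at -0.54, miR-16-5p at -0.33 and miR-15b-5p at -0.28. All 4 were below 0, around which the shared miRNAs lie evenly by construction. None was more than 2-fold below the median on these values, as 21.3% of the shared miRNAs were, whereas miR-15a-5p was at -1.05 with the surroundings of the spots subtracted. The median of the 4 members was -0.43, and their signals summed before the ratio gave -0.39. The quartiles of the 178 shared miRNAs were -0.84 and 1.32, and all 4 members lay between them, as did 49.4% of the shared miRNAs. From the highest ratio to the lowest, miR-15b-5p ranked 99 of 178, miR-16-5p 101, miR-195a-5p 113 and miR-15a-5p 130.

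The noise of the spots was carried into these ratios by raising one signal of a member and lowering the other, each by 2 SD of its array's BLANK spots. miR-16-5p then ran from -0.40 to -0.25, miR-15b-5p from -0.51 to -0.04 and miR-15a-5p from -1.01 to -0.49. These SDs are those of the trimmed BLANK spots. Untrimmed they were 4.71 on the C57BL/6 array and 5.04 on the BALB/c array, which would widen the ranges. The upper end for miR-15b-5p was already close to 0. For the dim miR-195a-5p the range was -1.64 to 1.32 and included 0. Bright spots also vary in proportion to their signal: the 8 spots of each spike control had SDs of 0.05 to 0.09 on the log2 scale within an array. With 2 of the larger SDs of each array added, the ranges of miR-16-5p (-0.74 to 0.09) and miR-15b-5p (-0.85 to 0.31) also included 0, and that of miR-15a-5p (-1.36 to -0.15) did not. These ranges cover the spots and leave out the variation between mice, pools and arrays, which was not measured. They also leave out how the background was removed. With the surroundings of the spots subtracted, miR-16-5p was at -0.91, under both of its ranges.

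**Figure D2:**
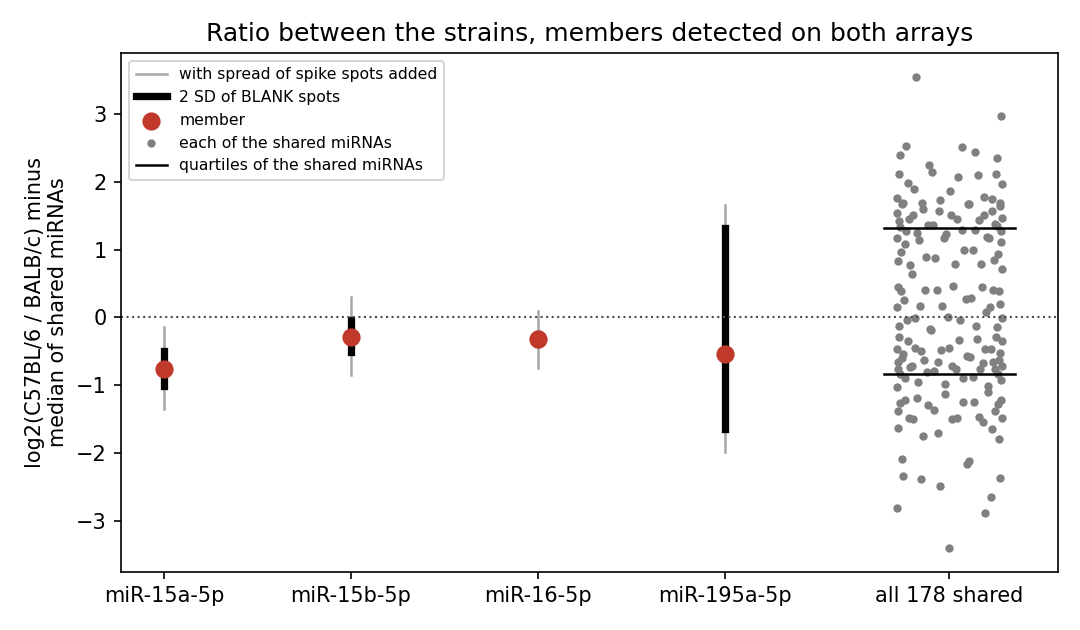
The log2 ratio of C57BL/6 to BALB/c minus the median of the shared miRNAs, for the 4 members (red points) and for each of the 178 shared miRNAs (grey points, with lines at their quartiles). Black bars are ranges from 2 SD of the BLANK spots and grey lines add the spread of the spike spots; all 4 members lie between -0.76 and -0.28.

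Whether a member was higher or lower in C57BL/6 EVs depended on the scaling of the arrays. With a common 75th percentile of the shared miRNAs on both arrays, all 4 members were lower in C57BL/6 EVs, as were 58.4% of the shared miRNAs. The log2 ratios were -1.20 for miR-15a-5p, -0.98 for miR-195a-5p, -0.76 for miR-16-5p and -0.72 for miR-15b-5p. Scaled in that way, the signal of miR-16-5p was 278 in C57BL/6 EVs and 473 in BALB/c EVs, 0.589 times as high. With no scaling all 4 were higher in C57BL/6 EVs, miR-16-5p by a log2 ratio of 1.65. On the authors' scale, where the detected miRNAs of an array have a median of 25, miR-16-5p had 812 in C57BL/6 EVs and 216 in BALB/c EVs, a log2 ratio of 1.91. On the spike controls the log2 ratios ran from 0.36 for miR-15a-5p to 0.84 for miR-15b-5p. The median of all shared miRNAs moved with the members, and was -0.44 on the shared 75th percentile, 1.97 with no scaling, 2.23 on the authors' scale and 1.12 with the spike controls as the base. No direction of the members by themselves is therefore given.

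**Figure D3:**
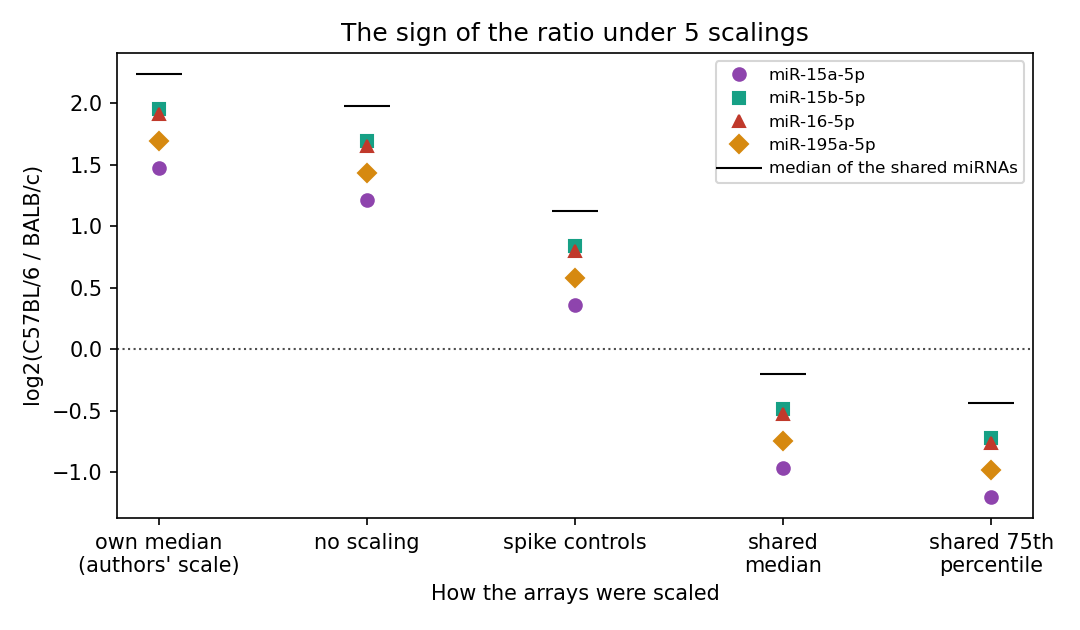
The log2 ratio of C57BL/6 to BALB/c of the 4 members under 5 ways of scaling the arrays, with the median of the 178 shared miRNAs as a black bar. The members lie below that bar under each scaling, and they are above 0 under 3 of the scalings and below 0 under both scalings on the shared miRNAs.

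The 4 members were also compared with each other, since no scaling enters the difference between their log2 ratios. The miRNAs of the Dleu2 locus, miR-15a-5p, and of the Smc4 locus, miR-15b-5p, differed in their log2 ratio by -0.48 (range from the BLANK spots -0.97 to 0.01). miR-15a-5p and miR-16-5p, which share the Dleu2 locus, differed by -0.44. Of the 6 pairs this was the only one whose range, -0.76 to -0.10, left out 0. With the spread of the spike spots added, the ranges of all 6 pairs included 0. miR-15b-5p and miR-16-5p, which share the Smc4 locus, differed by 0.04 (-0.25 to 0.36). The miR-16-5p spot reads the sum of both loci. A range that includes 0 does not show that a pair moved alike. The differences also depended on how the background was removed. With normexp and quantile normalization, relative to the shared miRNAs, miR-15a-5p was at -0.75, miR-16-5p at -0.72 and miR-15b-5p at -0.19. With the surroundings of the spots subtracted, miR-15a-5p was at -1.05 and miR-16-5p at -0.91. Of the summed signal of the 4 members, miR-16-5p made up 62.7% in C57BL/6 EVs (61.1% to 64.3%) and 59.8% in BALB/c EVs (54.8% to 65.2%), miR-15b-5p 20.0% and 18.5%, miR-15a-5p 14.1% and 18.2%, and miR-195a-5p 3.18% and 3.53%. The ranges hold the noise of the BLANK spots alone. With the spread of the spike spots added, the share of miR-15a-5p ran from 10.7% to 18.3% in C57BL/6 EVs and from 12.3% to 25.9% in BALB/c EVs, and the ranges overlapped. These are shares of fluorescence, and not of molecules. They hold for the spot intensities alone, since much of the brightness of the miR-16-5p spot was also found in its surroundings.

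By brightness among the 178 shared miRNAs, all 4 members stood further down in C57BL/6 EVs than in BALB/c EVs, as 51.1% of the shared miRNAs did. miR-16-5p ranked 34 in C57BL/6 EVs and 18 in BALB/c EVs. miR-15b-5p ranked 64 and 43, miR-15a-5p 77 and 46, and miR-195a-5p 144 and 140, in the same order of strains.

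The surroundings of the bright spots were bright as well. The surroundings of miR-16-5p read 676 on the C57BL/6 array and 256 on the BALB/c array, against the 740 and 307 of its spot. For miR-15b-5p they read 340 and 177, which is brighter than its own spot on both arrays. For this reason the intensity of the spot alone was used. With the surroundings subtracted, miR-15b-5p had no value, and miR-15a-5p, miR-16-5p and miR-195a-5p were at -1.05, -0.91 and -0.86 relative to the shared miRNAs. The surroundings of miR-15a-5p read 182 on the C57BL/6 array and 113 on the BALB/c array, against the 243 and 165 of its spot. After subtraction miR-16-5p was thus no longer far brighter than miR-15a-5p on either array.

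The opposite arms of the same hairpins were close to the background. Of the 8 3p arms, miR-322-3p was detected, in C57BL/6 EVs only, as were 24.2% of all miRNAs. It read 107 in C57BL/6 EVs, 2.38 SD above the background, and 105 in BALB/c EVs. Its guide arm miR-322-5p was not detected. The 7 others, among them miR-16-1-3p, miR-16-2-3p, miR-15a-3p and miR-15b-3p, were detected in neither strain, as were 65.9% of all miRNAs. Their intensities were 93.5 to 104 on the C57BL/6 array and 95.0 to 104 on the BALB/c array. For the Dleu2 and Smc4 loci, the 5p arms were thus detected in both strains and the 3p arms in neither.

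RefSeq's table held 4 other mouse miRNAs with the seed of miR-16-5p at the same bases, all of them on the array, and they are shown since 2 of them resemble a detected member.
miR-195b: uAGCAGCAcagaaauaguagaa
miR-6353: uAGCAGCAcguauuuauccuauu
miR-6342: cAGCAGCAaucuggucuuugag
miR-6419: cAGCAGCAaucugacacaugga

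All of these 4 were detected in neither strain, as were 65.9% of all miRNAs. miR-6353, whose first 12 bases are those of miR-16-5p, read 96.2 in both strains. miR-195b, which carries the same G10A and U11G as miR-195a-5p, read 93.3 in C57BL/6 EVs and 97.8 in BALB/c EVs. Both spots were thus at the background on arrays where miR-16-5p read 740 and 307.

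The miRNAs that neighbour miR-322 and miR-503 on the X chromosome were near the background too. Of 9 mature miRNAs of the miR-351, miR-542 and miR-450 hairpins, 2 were detected in C57BL/6 EVs and 0 in BALB/c EVs. The shares of all miRNAs were 33.6% and 9.84%. miR-351-5p read 114 in C57BL/6 EVs and 109 in BALB/c EVs, 4.39 SD and 1.53 SD above the background. miR-542-5p read 109 in C57BL/6 EVs and 110 in BALB/c EVs, against thresholds of 106 and 111. It lay 2.87 SD above the background of the C57BL/6 array and 1.91 SD above that of the BALB/c array. Together with miR-503-5p and miR-322-3p, 4 of the 13 spots of this locus passed the C57BL/6 threshold, against 33.6% of all miRNAs. None passed the BALB/c threshold, against 9.84% of all miRNAs.

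Plasma EVs can carry RNA of blood cells, and markers of these cells were measured beside the family. Among red cell miRNAs, miR-451a read 4180 in C57BL/6 EVs and 1603 in BALB/c EVs. miR-144-3p, from the same hairpin cluster as miR-451a, read 235 in C57BL/6 EVs and 159 in BALB/c EVs. On the spot intensities, miR-451a was at -0.53 relative to the shared miRNAs, and miR-144-3p at -0.71. The spot shared by miR-486a-5p and miR-486b-5p was at -0.45. These values were in the span of the 4 family members. The surroundings of miR-144-3p read 163 in C57BL/6 EVs and 124 in BALB/c EVs, and those of the miR-486 spot 176 and 123. With the surroundings subtracted, the red cell values would lie outside the span that the members then had. miR-144-5p was detected in neither strain. The summed signal of the red cell spots was 4321 in C57BL/6 EVs and 1593 in BALB/c EVs, and of miR-23a-3p, which is low in red cells, 337 and 183. On the spot intensities, the ratio of miR-451a to miR-23a-3p, a usual index of haemolysis, was higher in C57BL/6 EVs. The difference was 0.56 on the log2 scale (range from the BLANK spots 0.46 to 0.67). The log2 ratio of miR-16-5p exceeded that of miR-451a by 0.20 (0.12 to 0.29) and that of miR-23a-3p by 0.77 (0.60 to 0.94). With the spread of the spike spots added, these 3 ranges, -0.23 to 1.36, -0.57 to 0.98 and -0.09 to 1.62, all included 0. The surroundings of miR-451a read 3658 in C57BL/6 EVs and 1081 in BALB/c EVs, and those of miR-23a-3p 249 and 166. With the surroundings subtracted, the differences of miR-451a and of miR-16-5p from miR-23a-3p would not keep their sign, so that no direction is given for them. Of 5 platelet miRNAs, 5 were detected in both strains, against 9.37% of all miRNAs, with a summed signal of 783 in C57BL/6 EVs and 252 in BALB/c EVs. Relative to the shared miRNAs they ran from -1.24 for miR-223-3p to 0.27 for miR-24-3p, with a median of -0.59. Of 5 leukocyte miRNAs, 4 were detected in C57BL/6 EVs, against 33.6% of all miRNAs, and 2 in BALB/c EVs, against 9.84%. miR-155-5p was detected in neither strain, as were 65.9% of all miRNAs. The 2 leukocyte miRNAs detected in both lay on either side of the shared median, miR-142a-5p at -0.45 and miR-150-5p at 0.45. In BALB/c EVs miR-150-5p was only 2.49 SD above the background, and its range from the BLANK spots, -0.60 to 2.97, included 0. That of miR-142a-5p was -0.82 to -0.03, and with the spread of the spike spots added, -1.16 to 0.31, it included 0 as well. The part of red cells, platelets or leukocytes in the values of the family was not tested, and fewer vesicles of a cell type cannot be told apart from less RNA per vesicle.

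**Figure D4:**
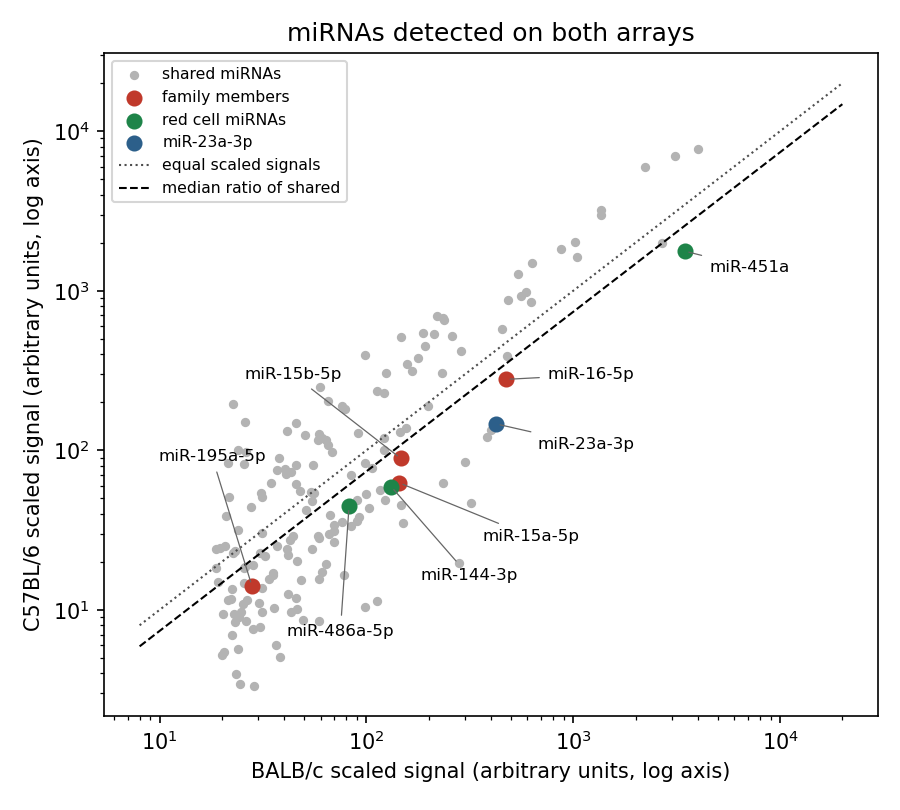
Scaled signals (arbitrary units, log axes) of the 178 miRNAs detected on both arrays, C57BL/6 on the vertical and BALB/c on the horizontal axis, with the 4 family members in red, red cell miRNAs in green and miR-23a-3p in blue. The members and the red cell miRNAs lie just under the dashed line of the median ratio, and miR-15a-5p lies beside miR-144-3p. The surroundings of the spots are not subtracted here.

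The shared miRNAs nearest to each member, by distance between log2 scaled signals over the 2 arrays, were found by rule. miR-144-3p was the nearest to miR-15a-5p, at a distance of 0.15, followed by miR-29a-3p at 0.34 and miR-30c-5p at 0.43. The nearest to miR-195a-5p were miR-10b-5p at 0.06, miR-99a-5p at 0.14 and miR-103-3p at 0.18. miR-15b-5p had miR-5112 at 0.31, miR-5130 at 0.50 and miR-21a-5p at 0.51. For miR-16-5p the nearest were more distant, miR-5100 at 0.49, miR-1964-5p at 0.94 and miR-23a-3p at 0.94. With 2 arrays this likeness means only a similar brightness in both strains, with the surroundings of the spots not subtracted.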

How the data were processed

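EV RNA was labelled with Cy5 and hybridised to 3D-Gene miRNA oligo chips (1 colour), 1 pool per strain. The deposited scanner files give the median intensity of 3200 spots and of their surroundings, with no subtraction or normalization per the file headers. The table of the authors holds a linear intensity for every detected miRNA, by steps not given in the sources used here. Its values equal the spot intensity less the trimmed BLANK mean, multiplied by 1.26 on the C57BL/6 array and by 1.06 on the BALB/c array, with 0 detection calls that differ and a column median of 25 on each array. No columns of the authors' own comparisons were among the files.

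The mean of the BLANK spots, with 45 of 896 left out at each end, was subtracted. Detection was set at 2 SD, and the 75th percentiles of the 178 shared miRNAs (333 for C57BL/6 and 62.6 for BALB/c) were brought to their geometric mean, which divided the ratio by 5.32. Ratios are C57BL/6 over BALB/c, formed only where both were detected. The number of arrays limits the precision. The members, lists and alternatives were chosen with earlier results of these data known. Named were the members, their 3p arms, other miRNAs with the seed, neighbours on the X chromosome, miRNAs with an offset seed, blood cell markers and the 3 nearest miRNAs of each member. Sequences and names came from RefSeq tables of GRCm38.p6, matched by name. Alternatives were detection at 3 SD, untrimmed BLANK spots, the authors' table, 4 other scalings, normexp with an offset of 50 and quantile normalization, and subtraction of the surroundings. The calculation was tested on simulated data. The scripts ran on Python 3.11.15 (numpy 2.4.6, pandas 2.3.3) and, for normexp, limma 3.58.1 in R 4.3.3.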

Additional observations from a re-analysis of the deposited data

How the results depend on the processing

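Detection was set anew under 3 alternatives, at 3 SD, with untrimmed BLANK spots and in the authors' table. The number of members detected was 4 in BALB/c EVs under each of them, and 5 in C57BL/6 EVs except at 3 SD, where miR-503-5p was lost and 4 remained. With normexp and with the surroundings subtracted it was not set anew. The median of the members relative to the shared miRNAs, -0.43, was -0.58 at 3 SD, -0.44 with untrimmed BLANK spots, -0.45 with normexp and quantile normalization and -0.91 with the surroundings subtracted, where miR-15b-5p had no value and 3 members were left. With normexp, miR-16-5p was at -0.72 and miR-195a-5p at -0.04. All of these values kept their sign, while the size of each depended on how the background was removed.

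The median on the scaled values, -0.87, was -1.22 at 3 SD, -1.15 with untrimmed BLANK spots, -0.64 on the shared median, -0.42 with normexp and -1.55 with the surroundings subtracted. It turned to 1.80 in the authors' table, and likewise when each array was scaled on the median of its own detections, which is the same factor, to 1.54 with no scaling and to 0.69 on the spike controls. For miR-15a-5p the turned values were 1.47, 1.21 and 0.36 in the same order of settings, for miR-15b-5p 1.95, 1.69 and 0.84, for miR-16-5p 1.91, 1.65 and 0.80, and for miR-195a-5p 1.69, 1.43 and 0.58. By construction these settings multiply all ratios by 1 factor. No paired analysis was possible because each strain has 1 array and the labels give no replicate numbers. Signal over background was low for miR-195a-5p in BALB/c EVs (3.01 SD) and for miR-503-5p in C57BL/6 EVs (2.997 SD), each from 1 spot.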

Other observations

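miR-103-3p and miR-107-3p carry the 7 bases of the family's seed at bases 1 to 7, moved by 1 position towards the 5′ end. Capitals again mark bases 2 to 8 of the RefSeq sequences.
miR-103-3p: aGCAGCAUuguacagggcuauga
miR-107-3p: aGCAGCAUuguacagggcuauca

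miR-103-3p read 130.0 in C57BL/6 EVs and 116 in BALB/c EVs, the latter 3.39 SD above the background. Relative to the shared miRNAs it was at -0.76 on the log2 scale, and the range from the BLANK spots, -1.80 to 0.83, included 0. The sequences of miR-103-3p and miR-107-3p are nearly the same, and how much RNA of one binds to the spot of the other was not tested. miR-107-3p read 131 in C57BL/6 EVs and 110.3 in BALB/c EVs, just under the threshold of 111, so that its ratio was not formed. Without scaling miR-107-3p was at least 4.03-fold higher in C57BL/6 EVs than in BALB/c EVs. This took the dimmest detected BALB/c signal in place of its own and left out spot noise. The median log2 ratio of the shared miRNAs without scaling was itself 1.97. After scaling the bound fell under 1, so that no fold is given there.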
